A study of Mus musculus with 16 samples.

Results

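Rag1, Rag2, Dntt, Vpreb1, Vpreb2, Vpreb3, Igll1, Ebf1 and Pax5 are genes of early B cell development and of V(D)J recombination. These 9 genes were taken by symbol from the 55536 Ensembl identifiers counted in the series, and each symbol matched 1 identifier. In bone marrow all 9 had higher mean levels in K74R than in WT libraries, with fold changes fitted by edgeR between 1.55 and 3.11. The highest was that of Vpreb2, a gene with only 3 to 26 counts a library, and Rag1 followed at 2.68. None passed an adjusted p threshold of 0.05 with 3 libraries a group. Relative to the B lineage gene Cd79a, Rag1, Ebf1 and Pax5 stood higher in every K74R library than in every WT library. Their ratios of means were 1.61, 1.23 and 1.10. Rag2, Dntt, Vpreb1, Vpreb2, Vpreb3 and Igll1 overlapped between the genotypes on that scale. In the tumors and in the samples labelled MSC, counts of 7 of the 9 genes were between 0 and 5 in every library. Ebf1 had between 2841 and 3135 counts in every MSC library, where Pax5 had 0. In the tumors Ebf1 had between 333 and 665 counts a library and Pax5 between 424 and 606.

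The study set mice of genotype KLF K74R against mice of genotype KLF WT by RNA sequencing in mouse tissue. The groups were K74R bone marrow (3 libraries) and WT bone marrow (3), K74R tumor (3) and WT tumor (3), and K74R MSC (2) and WT MSC (2), 16 libraries in all. The tumors were of MC38, a mouse colon adenocarcinoma cell line, had a volume of up to 1000 mm3, and their genotype label is read as that of the host, since they hold the cell line as well as host cells. The labels do not say which member of the KLF transcription factor family carries the change, do not spell out MSC, give no age, sex or strain, and call the mutant libraries KO in their titles but K74R in the genotype field. Nothing states that the libraries of a group came from separate animals, so p-values measure the spread between these libraries, which may be technical.

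Library totals lay between 14067259 and 18923751 counts. Klf1, the erythroid member of the family, had 130, 99.9 and 85.7 CPM (counts per 1e6, scaled within the tissue) in K74R marrow, against 123, 102 and 136 CPM in WT marrow (log2 fold change -0.20, SE 0.15, adjusted p = 0.541, edgeR), and a substitution of 1 amino acid cannot be checked from gene counts. In the whole marrow table, 115 of 14872 genes tested passed the threshold (0.773%), 76 of them higher in K74R (0.511%).

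B cells arise in bone marrow from lymphoid progenitors that commit under the transcription factors EBF1 and PAX5. At the pro-B stage the RAG1 and RAG2 recombinase cuts the immunoglobulin heavy chain locus, and terminal transferase, encoded by Dntt, adds untemplated bases at the joints. A finished heavy chain pairs with a surrogate light chain made of VPREB and the Igll1 product lambda5, forming the pre-B cell receptor, after which the light chain loci are recombined in turn. RAG transcripts are switched off again as B cells mature.

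On the GRCm38 mouse genome, Rag1 lies on chromosome 2 from 101638282 to 101649501 on the minus strand and is transcribed towards Rag2, which lies from 101624718 to 101632529 on the plus strand. Igll1 (chromosome 16 from 16860671 to 16863985) and Vpreb1 (16868403 to 16870843) lie next to each other on the minus strand, and Vpreb2 lies on the same chromosome from 17980428 to 17981273 on the plus strand. Dntt is on chromosome 19 from 41029275 to 41059525, Vpreb3 on chromosome 10 from 75943057 to 75949657, Ebf1 on chromosome 11 from 44617317 to 45008091 and Pax5 on chromosome 4 from 44524757 to 44710487.

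The 250 bases before the RefSeq start site of Rag1, Rag2 and Igll1 are shown because Rag1 and its neighbour Rag2 differed in their level relative to Cd79a and Igll1 belongs to the other adjacent pair. RefSeq sequence is from GRCm38.p6, 5′ to 3′ in the direction of transcription, and capitals mark letters that matched CAGGTG (an E2A motif), CCCNNGGG (EBF1) or TGGGAA (Ikaros) on either strand. The windows are chr2:101649533-101649782 on the minus strand for Rag1, chr2:101624462-101624711 on the plus strand for Rag2 and chr16:16863986-16864235 on the minus strand for Igll1.
Rag1: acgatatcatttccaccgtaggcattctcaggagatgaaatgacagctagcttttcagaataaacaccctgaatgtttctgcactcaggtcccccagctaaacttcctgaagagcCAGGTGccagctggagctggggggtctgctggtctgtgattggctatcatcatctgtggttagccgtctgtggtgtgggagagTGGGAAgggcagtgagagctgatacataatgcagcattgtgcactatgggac
Rag2: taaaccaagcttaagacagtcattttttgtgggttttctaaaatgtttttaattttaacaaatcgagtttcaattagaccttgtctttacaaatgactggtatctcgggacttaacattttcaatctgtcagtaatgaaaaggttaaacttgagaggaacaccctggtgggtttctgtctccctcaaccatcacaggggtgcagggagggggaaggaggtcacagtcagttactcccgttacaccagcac
Igll1: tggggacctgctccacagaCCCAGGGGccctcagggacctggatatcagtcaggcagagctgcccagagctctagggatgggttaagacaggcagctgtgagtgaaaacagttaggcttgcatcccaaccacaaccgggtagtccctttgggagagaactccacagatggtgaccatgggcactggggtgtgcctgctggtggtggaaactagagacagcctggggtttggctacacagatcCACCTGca

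The Rag1 window held CAGGTG at position -135 from the start site and TGGGAA at position -52. The Rag2 window held none of the motifs. The Igll1 window held CCCAGGGG, where CCCNNGGG matched, at position -231, and CACCTG, the reverse complement of CAGGTG, at position -8. Of the 10 windows of the 9 genes (Ebf1 has 2 start sites), 4 held CAGGTG, against 17.2% of all 32851 mouse windows of this length. The matches of Vpreb1 (position -88) and Vpreb2 (position -232) lie in a segment that is 98.1% identical between these genes. They are therefore not separate matches. TGGGAA was in 3 of 10 windows and 21.6% of all windows, and CCCNNGGG in 1 of 10 and 11.8%. The PU.1 motif GAGGAAGT was in 0 of 10 and 2.44%. The motifs do not overlap in these windows, and a match of letters is a description, not a binding site.

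Vpreb1 and Vpreb2 are near copies of each other, which bears on every count given for them. Of 766 and 759 transcript bases, 97.4% of the aligned bases were identical, with 20 mismatches and 7 gap positions, while Vpreb1 and Vpreb3 shared 55.1%. Of all stretches of 50 bases in the Vpreb2 transcript, 32.8% also occur unchanged in the Vpreb1 transcript, and of those of 100 bases, 14.7%. A segment just before the RefSeq start site of Vpreb1, with its counterpart before that of Vpreb2, is shown with its 2 differing bases in capitals, chr16:16869256-16869361 on the minus strand for Vpreb1 and chr16:17980315-17980420 on the plus strand for Vpreb2.
Vpreb1: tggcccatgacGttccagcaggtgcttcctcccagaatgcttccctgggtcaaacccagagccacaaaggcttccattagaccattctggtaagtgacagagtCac
Vpreb2: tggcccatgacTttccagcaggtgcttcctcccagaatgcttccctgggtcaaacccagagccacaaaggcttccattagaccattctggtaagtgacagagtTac

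This segment is 106 bases long and 98.1% identical between both genes. At Vpreb1 it lies inside the gene as given in the GENCODE annotation, which has longer transcripts that start further upstream, and at Vpreb2 it lies outside the gene. The sources used here do not say how reads that match more than 1 place were treated, so the division of reads between Vpreb1 and Vpreb2 is uncertain.

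Whether the K74R genotype went with a different level of these genes was asked first in bone marrow, where all 9 passed the filter on low counts. The recombination genes are described first. Rag1, the catalytic subunit of the recombinase, had 150, 195 and 222 CPM in K74R marrow, against 61.0, 109 and 40.8 CPM in WT marrow. All 3 K74R libraries lay above all 3 WT libraries. The mean was 189 ± 36.6 CPM in K74R and 70.3 ± 35.2 CPM in WT (SD, n = 3 each), a log2 fold change of 1.42 (SE 0.30), and the quasi-likelihood test of edgeR gave an unadjusted p of 0.000999 and an adjusted p of 0.0798.

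Rag2, the partner subunit that reads the chromatin state of the target locus, had 11.8, 13.3 and 13.3 CPM in K74R marrow, against 6.45, 13.9 and 4.28 CPM in WT marrow. WT library 2 was above every K74R library, so the groups overlapped. The log2 fold change was 0.63 (SE 0.35, adjusted p = 0.379, edgeR). Dntt had 49.9, 63.3 and 65.8 CPM in K74R marrow, against 28.4, 47.2 and 31.3 CPM in WT marrow, without overlap (log2 fold change 0.74, SE 0.18, adjusted p = 0.107, edgeR).

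The surrogate light chain genes followed. Igll1, which encodes lambda5, had 23.6, 37.3 and 37.6 CPM in K74R marrow, against 16.8, 29.7 and 12.2 CPM in WT marrow (log2 fold change 0.74, SE 0.29, adjusted p = 0.234, edgeR). Vpreb1 had 9.90, 16.9 and 14.1 CPM in K74R marrow, against 5.68, 13.01 and 6.34 CPM in WT marrow (0.70, SE 0.31, adjusted p = 0.286, edgeR). In both genes the lowest K74R library, library 1, was below WT library 2, the highest WT library.

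Vpreb2 was close to the limit of detection, with 26, 13 and 23 counts in K74R marrow, against 8, 9 and 3 counts in WT marrow. On the CPM scale this was 1.72, 0.873 and 1.57 in K74R and 0.516, 0.566 and 0.221 in WT, with no overlap. Its log2 fold change of 1.64 (SE 0.46, adjusted p = 0.133, edgeR) was numerically the largest of the 9 and had the largest standard error. Vpreb3, a related gene whose product associates with newly made immunoglobulin chains, had 25.2, 37.5 and 42.8 CPM in K74R marrow, against 15.4, 29.0 and 12.1 CPM in WT marrow (0.89, SE 0.30, adjusted p = 0.182, edgeR). K74R library 1 and WT library 2 overlapped here too.

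The lineage transcription factors separated the genotypes. Ebf1, which opens the B cell programme, had 114, 166 and 184 CPM in K74R marrow, against 63.9, 103 and 51.6 CPM in WT marrow (log2 fold change 1.08, SE 0.25, adjusted p = 0.093, edgeR). Pax5, which holds cells to the B lineage, had 204, 282 and 308 CPM in K74R marrow, against 130, 193 and 96.0 CPM in WT marrow (0.92, SE 0.23, adjusted p = 0.115, edgeR). In both genes every K74R library was above every WT library.

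**Figure D1:**
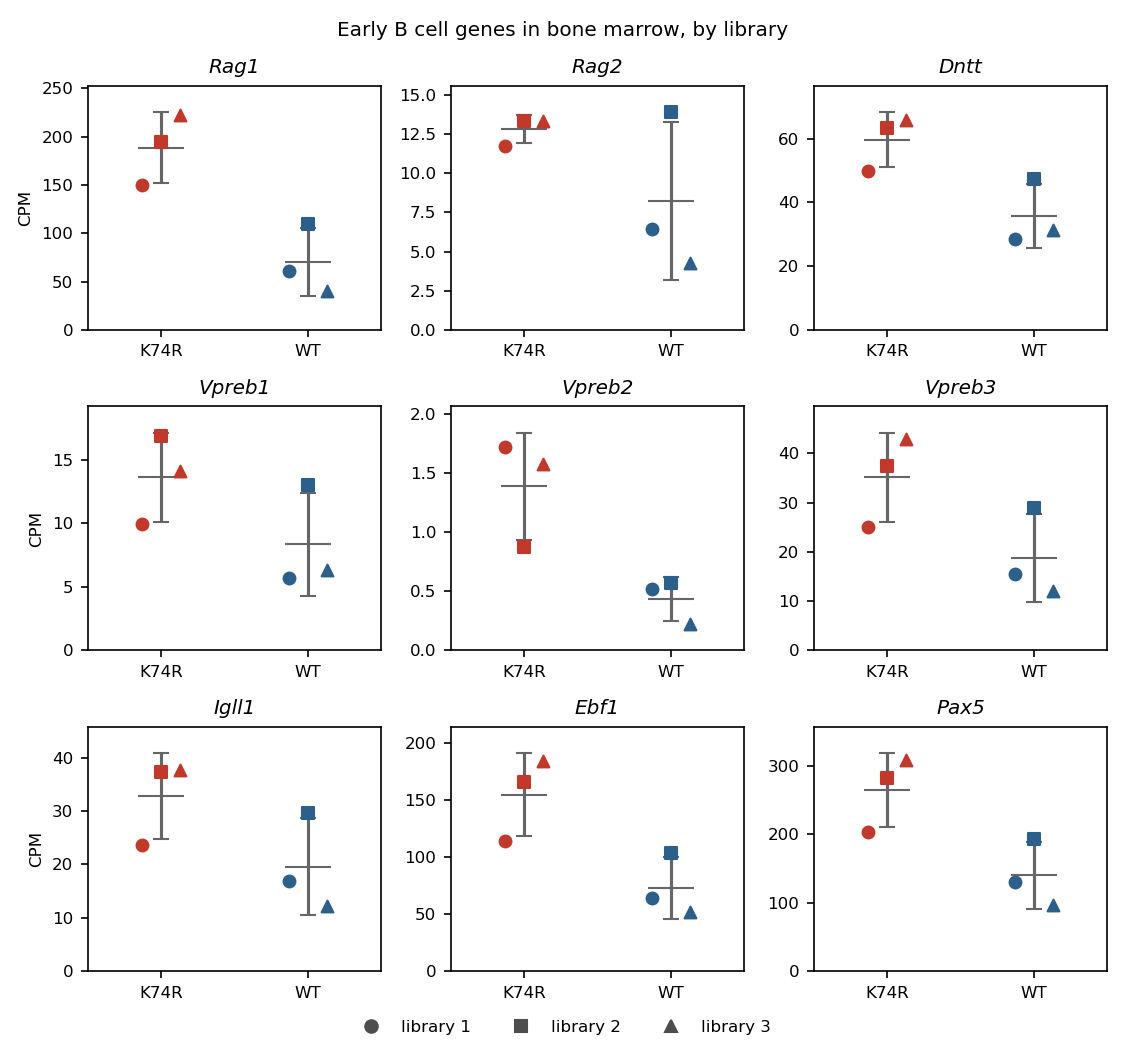
Level of each of the 9 genes in bone marrow in CPM (y axis, from 0), K74R on the left and WT on the right. Points are libraries, the marker shape is the library number, horizontal bars are means and error bars are SD (n = 3 each). WT library 2 (square) is the highest WT library in every panel, and K74R and WT points do not overlap for Rag1, Dntt, Vpreb2, Ebf1 and Pax5.

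All 9 log2 fold changes were above 0, as were those of 49.9% of the genes tested, and their median was 0.89, against a median of -0.00052 over all genes. The smallest, 0.63, was exceeded or equalled by 5.92% of all genes. None of the 9 passed the adjusted threshold, against 0.511% of all genes called higher in K74R. At an unadjusted p under 0.05, edgeR's quasi-likelihood test had 7 of the 9, all higher in K74R, against 9.8% of all genes. In 5 of the 9 every K74R library exceeded every WT library, against 11.8% of all genes. DESeq2 called 2 of the 9, Dntt (adjusted p = 0.00351) and Rag1 (adjusted p = 0.0422), against 2.21% of all genes called higher, and limma-voom called 0, against 0.356%.

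Most of the 9 genes moved alike from library to library within each genotype, but not all had the same order. Vpreb2 was highest in K74R library 1 and lowest in K74R library 2, and Vpreb1 was highest in K74R library 2. In WT, Dntt and Vpreb1 were lowest in library 1 and the other genes in library 3. Their summed level was 589, 811 and 890 CPM in K74R marrow, against 328, 539 and 255 CPM in WT marrow. WT library 2 was the highest WT library for all 9 genes, and K74R library 1 was the lowest K74R library for all except Vpreb2. The share of all genes with these orders was not computed. The count of genes past the threshold turned on 1 library: without WT library 2, 8 of the 9 passed, with edgeR adjusted p-values between 0.00542 and 0.0278, and Vpreb2 did not (adjusted p = 0.0986). In that fit 429 of all 15231 genes tested were called higher in K74R, against 76 of 14872 with all libraries. Without K74R library 1, Ebf1 alone passed (adjusted p = 0.0444, edgeR), in a fit that called 92 of all 15284 genes higher in K74R. Without any of the other 4 libraries none of the 9 passed. In bulk marrow, fewer cells of a type and less RNA per cell cannot be told apart.

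Between genes, levels were compared per length of exon. On the scale of CPM per kb, Vpreb3 averaged 40.9 in K74R and 21.9 in WT marrow, Pax5 29.9 in K74R and 15.8 in WT, Rag1 28.6 in K74R and 10.6 in WT, and Dntt 26.04 in K74R and 15.6 in WT. Ebf1 averaged 15.9 in K74R and 7.48 in WT marrow, Igll1 15.2 in K74R and 9.04 in WT, and Vpreb1 11.4 in K74R and 6.96 in WT. The lowest were Rag2, at 3.74 in K74R and 2.40 in WT, and Vpreb2, at 1.83 in K74R and 0.572 in WT. Rag1 stood above Rag2 by several-fold in both genotypes although the recombinase contains both subunits.

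Because all B lineage genes can move with the number of B cells, each gene was also divided by Cd79a, which encodes a signaling chain of the B cell receptor and is transcribed from the pro-B stage on. Cd79a itself had 116, 154 and 163 CPM in K74R marrow, against 79.8, 114 and 57.7 CPM in WT marrow (log2 fold change 0.78, SE 0.22, adjusted p = 0.133, edgeR). These ratios are descriptions without a test. Rag1 gave 1.29, 1.26 and 1.37 counts per Cd79a count in K74R marrow, against 0.764, 0.955 and 0.707 in WT marrow. The means were 1.30 ± 0.0554 in K74R and 0.809 ± 0.130 in WT (SD, n = 3 each), a ratio of 1.61 with no overlap.

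Ebf1 gave 0.983, 1.08 and 1.13 counts per Cd79a count in K74R marrow, against 0.80, 0.905 and 0.895 in WT marrow. Pax5 gave 1.76, 1.82 and 1.89 in K74R, against 1.62, 1.69 and 1.67 in WT. Both separated the genotypes, by a ratio of means of 1.23 for Ebf1 and 1.10 for Pax5. Over all genes tested, every K74R library exceeded every WT library on this scale in 0.498%, and every K74R library was below every WT library in 44.9%.

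The other 6 genes overlapped between genotypes relative to Cd79a. Means were 0.0898 in K74R and 0.0922 in WT for Rag2, and 0.415 in K74R and 0.437 in WT for Dntt. They were 0.225 in K74R and 0.227 in WT for Igll1, and 0.0937 in K74R and 0.0983 in WT for Vpreb1. For Vpreb3 they were 0.241 in K74R and 0.219 in WT, and for Vpreb2 0.0100 in K74R and 0.00508 in WT.

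Rag1 stood higher in every K74R library relative to each of the 4 genes it was divided by. Relative to Cd79b, the second signaling chain, the Rag1 means were 1.47 in K74R and 0.849 in WT, and Rag1, Ebf1 and Pax5 were higher in every K74R library than in every WT library, as were 0.74% of all genes. Relative to Ighm, a heavy chain constant gene, the same 3 genes were higher in every K74R library, as were 0.598% of all genes, with Rag1 means of 0.171 in K74R and 0.104 in WT. Relative to Blnk, a pre-B cell receptor adaptor, Rag1 gave 2.72, 2.37 and 2.59 in K74R marrow, against 1.82, 1.97 and 1.84 in WT marrow, with every K74R library above every WT library, as in 0.262% of all genes. Relative to Blnk, Ebf1 (means 2.08 in K74R and 2.03 in WT) and Pax5 (3.58 in K74R and 3.90 in WT) overlapped. Igll1 stood the other way on that scale, with 0.429, 0.453 and 0.440 counts per Blnk count in K74R marrow, against 0.501, 0.536 and 0.551 in WT marrow. Every K74R library was below every WT library, as in 43.4% of all genes. On the Cd79b and Ighm scales, every K74R library was below every WT library in 29.6% and 50.5% of all genes. Cd79a, Cd79b, Blnk and Ighm themselves had higher means in K74R marrow, which lowers the share of all genes that can stand higher relative to them. These shares are thus no measure for B lineage genes alone.

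Rag1 was also set against other early B genes. There were 12.7, 14.6 and 16.6 Rag1 counts per Rag2 count in K74R marrow, against 9.45, 7.86 and 9.53 in WT marrow. Per Igll1 count there were 6.34, 5.22 and 5.90 in K74R, against 3.63, 3.68 and 3.33 in WT. Per Dntt count there were 3.00, 3.07 and 3.37 in K74R, against 2.15, 2.31 and 1.30 in WT. All of these ratios separated the genotypes, with ratios of means of 1.64 in each case. The share of all genes that separate on these scales was not computed. The ratios largely restate the log2 fold changes, 1.42 for Rag1 against 0.63 for Rag2, 0.74 for Igll1 and 0.74 for Dntt. The surrogate light chain kept its proportions: Vpreb1 and Vpreb2 together gave 0.462 counts per Igll1 count in K74R and 0.454 in WT, with overlap.

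**Figure D2:**
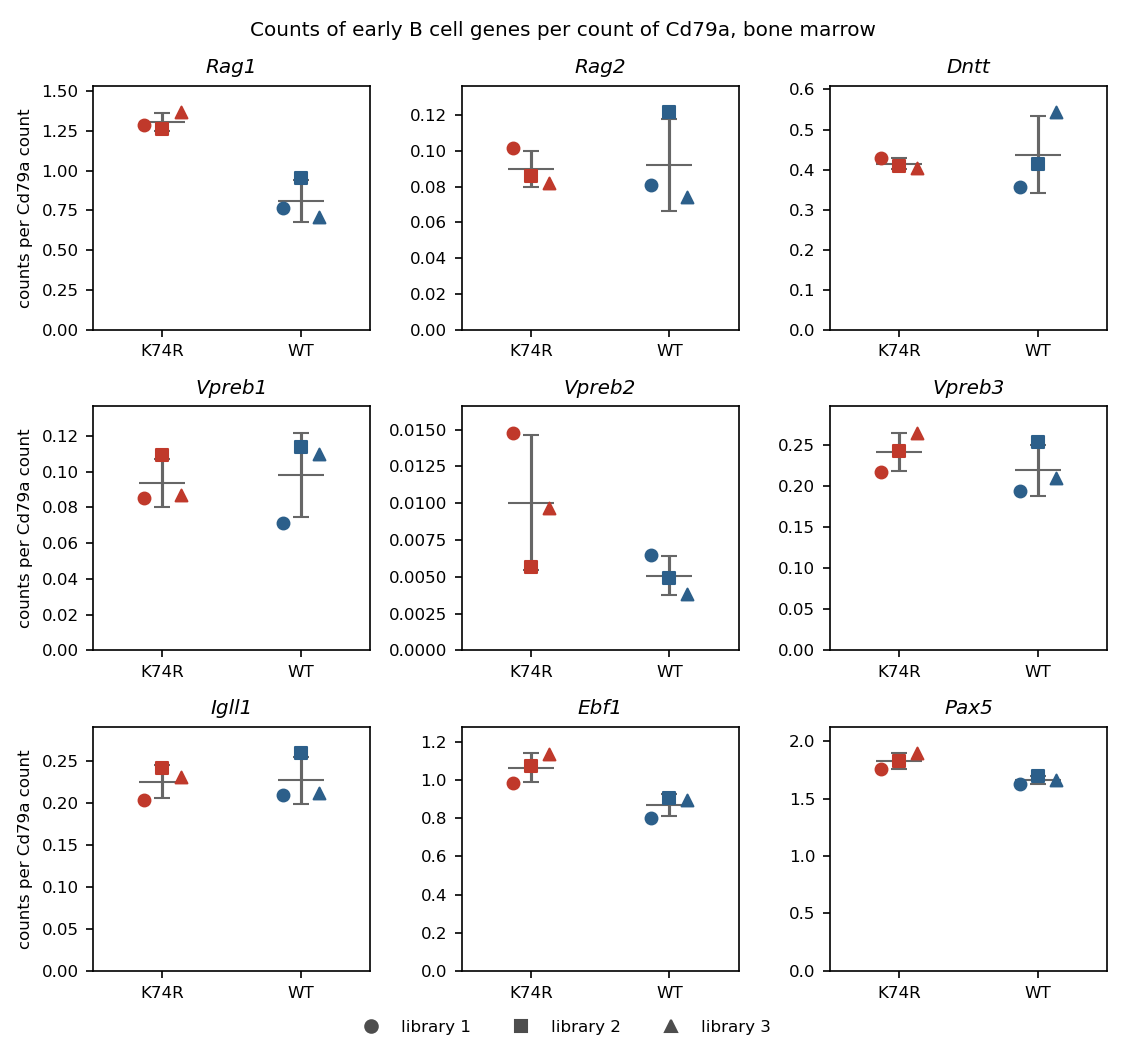
Counts of each of the 9 genes per count of Cd79a in bone marrow (y axis, from 0), K74R on the left and WT on the right. Points are libraries, horizontal bars are means and error bars are SD (n = 3 each). Rag1, Ebf1 and Pax5 separate the genotypes, Rag1 with means of 1.30 in K74R and 0.809 in WT, and the other genes overlap.

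Neighbouring genes were examined because both adjacent gene pairs lie in shared chromosomal regions. Rag1 and Rag2 are 5752 bases apart, and B230118H07Rik, which overlaps both, had a log2 fold change of 0.11 (adjusted p = 0.839, edgeR). Traf6, which encodes a ubiquitin ligase of innate immune signaling and lies beside Rag1, had -0.08. At the other pair, Top3b, encoding a topoisomerase, had -0.02 and Ppm1f, encoding a phosphatase, had -0.13. Of 22 tested genes within 100 kb of any of the 9, none passed the threshold by edgeR, against 0.773% of all genes, and 3 had an unadjusted p under 0.05, against 17.8% of all genes in either direction, while DESeq2 and limma-voom called 0.

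Some neighbours share exon sequence with the 9 genes. Top3b, on the opposite strand, overlaps 9.01% of the exon bases of Vpreb1. B230118H07Rik overlaps 6.07% of those of Rag2 and 1.21% of those of Rag1. Pax5 shares 7.18% with 5730488B01Rik, whose log2 fold change of 1.58 (SE 0.50, adjusted p = 0.165, edgeR) was the highest among the neighbours, and 1.41% with Gm12462. The sources used here do not give the strand setting of the counting. Blnk, an adaptor of the pre-B cell receptor that lies beside Dntt, had a log2 fold change of 1.00 (adjusted p = 0.140, edgeR).

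**Figure D3:**
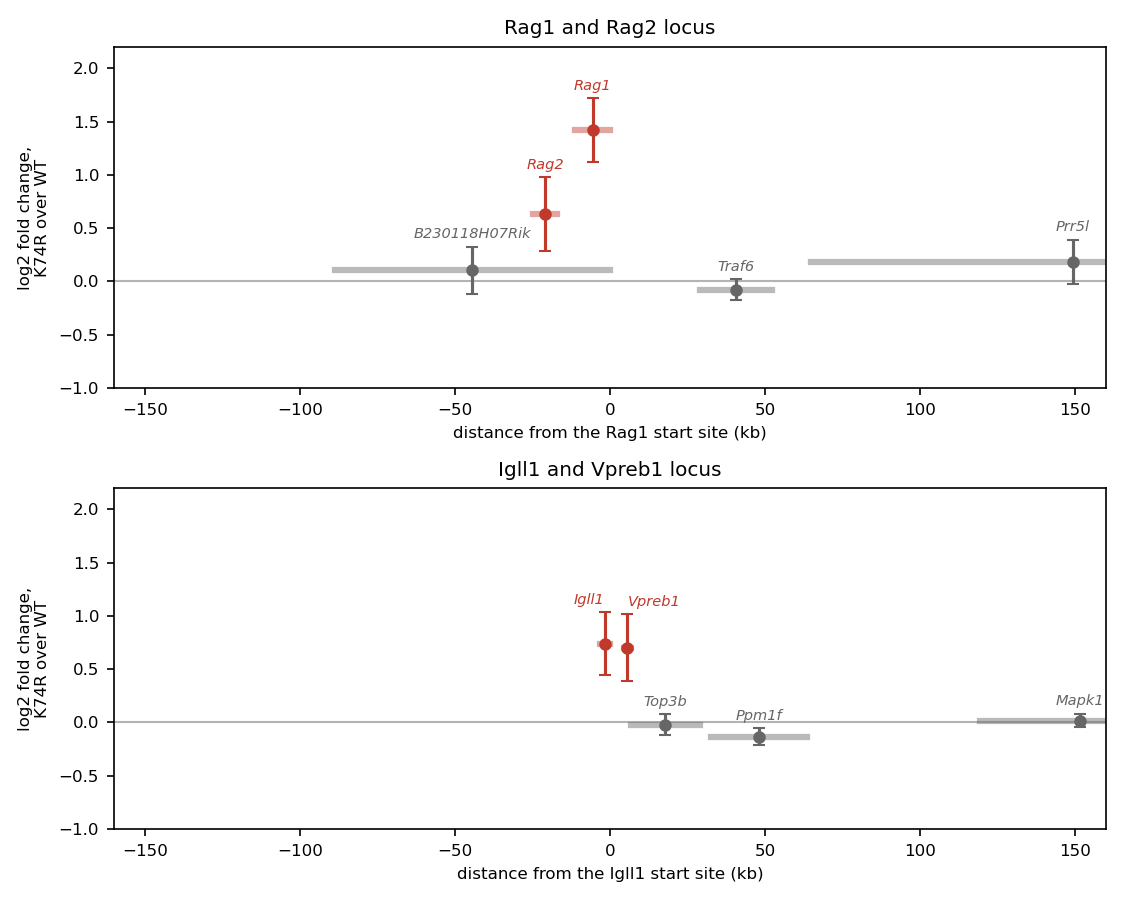
Log2 fold change, K74R over WT in bone marrow (y axis), of tested genes near Rag1 (top) and Igll1 (bottom), by distance from the start site in kb (x axis, running with rising chromosome position). Dots are gene midpoints, horizontal bars the gene bodies, vertical bars the standard error, red the early B genes and grey the others. Rag1 and Rag2 sit at 1.42 and 0.63 and Igll1 and Vpreb1 at 0.74 and 0.70, above the grey genes, which lie between -0.13 and 0.18.

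Other genes of the pathway were described from lists chosen with results of these data known, so their direction is no independent evidence. Of 15 early B regulators, 13 had a log2 fold change above 0, with a median of 0.50. Of the 15, 2 passed the threshold as higher in K74R marrow, against 0.511% of all genes. Il7r, the receptor subunit for the growth factor interleukin 7, had 95.0, 131 and 152 CPM in K74R, against 41.9, 68.8 and 35.2 CPM in WT (log2 fold change 1.37, SE 0.24, adjusted p = 0.0454, edgeR). Bcl11a, a transcription factor of lymphoid progenitors, had 106, 96.7 and 104 CPM in K74R, against 80.3, 76.5 and 73.5 CPM in WT (0.42, SE 0.07, adjusted p = 0.0454, edgeR). For both genes every K74R library was above every WT library, as in 11.8% of all genes. DESeq2 called 6 of the 15 higher, against 2.21% of all genes. Limma-voom called 1, Il7r (adjusted p = 0.0491), against 0.356% of all genes called higher.

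Both calls were near the threshold. Il7r passed in 10 of 17 alternative settings and Bcl11a in 8 of 17. The Il7r adjusted p was 0.212 without K74R library 2, 0.200 without K74R library 3, 0.119 without WT library 1 and 0.175 without WT library 3. The Bcl11a adjusted p was 0.0749, 0.175 and 0.212 without K74R library 1, 2 or 3, and 0.0858 and 0.214 without WT library 1 or 3. Of the regulators that did not pass, Myb and Ikzf3 had the next lowest p, with Myb at a log2 fold change of 0.50 (SE 0.11, adjusted p = 0.0864, edgeR) and Ikzf3 at 0.83 (SE 0.20, adjusted p = 0.107, edgeR).

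The listed genes of recombination and repair, which include cofactors and binding proteins as well as enzymes, had no common direction. Of 13, 6 had a log2 fold change above 0, the median was -0.01 and none passed the threshold by edgeR. At an unadjusted p under 0.05 by edgeR there were 4 higher and 2 lower, against 9.8% of all genes higher and 17.8% in either direction. DESeq2 called 2 higher, against 2.21% of all genes, and limma-voom 0. Lig4, the ligase that closes the joint, had 22.4, 29.6 and 34.3 CPM in K74R marrow, against 13.4, 24.1 and 12.0 CPM in WT marrow (log2 fold change 0.80, SE 0.26, adjusted p = 0.169, edgeR). Xrcc6, which encodes the Ku70 end-binding protein, had a log2 fold change of 0.38, and Poll, a gap-filling polymerase, -0.40, and neither passed.

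Of 14 genes of pre-B cell receptor signaling, 13 had a log2 fold change above 0 and none passed by edgeR, with a median of 0.37. There were 7 higher, against 9.8% of all genes, and 0 lower at an unadjusted p under 0.05 by edgeR. DESeq2 called 1 higher, against 2.21% of all genes, and limma-voom 0. Ighm, the heavy chain constant gene, had a log2 fold change of 0.75 (adjusted p = 0.130, edgeR), and Syk, the kinase downstream of the receptor, 0.53 (adjusted p = 0.0864). Of 12 surface and stage genes of pro-B and pre-B cells, 9 were above 0 and 1, Il7r, passed, against 0.511% of all genes called higher. The median of these 12 was 0.39 and the lowest value -0.09. Their summed level overlapped, between 4076 and 4591 CPM in K74R and between 3944 and 4155 CPM in WT. At an unadjusted p under 0.05 by edgeR, 6 were higher, against 9.8% of all genes, and 0 lower. DESeq2 called 3 higher, against 2.21% of all genes, and limma-voom 1, against 0.356%. Akap12, a scaffold protein gene, had a log2 fold change of 1.06, and Cd2, an adhesion receptor gene, 0.80, and neither passed by edgeR.

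Genes of later B cells and of other marrow cells were given beside these results. Of 15 mature B genes, 14 had a log2 fold change above 0, the median was 0.55 and none passed by edgeR. At an unadjusted p under 0.05 by edgeR, 11 were higher, against 9.8% of all genes, and 0 lower. DESeq2 called 6 higher, against 2.21% of all genes, and limma-voom none. Cd22, an inhibitory receptor gene, had 0.70 (adjusted p = 0.0727, edgeR), H2-Ob, of antigen presentation, 0.59 (adjusted p = 0.083) and Ms4a1, encoding CD20, 0.67 (adjusted p = 0.103). Of 7 plasma cell genes tested, 6 were above 0, with a median of 0.45. In that list Slamf7 had 0.86, Irf4 0.94 and Jchain 0.45, and none passed by edgeR, while 4 were higher at an unadjusted p under 0.05, against the same 9.8%. DESeq2 called 1 plasma cell gene higher, against 2.21%, and limma-voom 0.

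Dntt and the RAG genes are also used by thymocytes, and Dntt and B lineage transcripts can occur in plasmacytoid dendritic cells. Of 13 T cell genes tested, 12 had a log2 fold change above 0, with a median of 0.43. Their summed level lay between 68.1 and 81.7 CPM in K74R and between 46.2 and 54.5 CPM in WT marrow, and Ptcra, the pre-T cell receptor chain that marks thymocytes, had no counts in any marrow library. Lck had a log2 fold change of 0.46, Tcf7 0.56 and Cd3d 0.93. Of 8 plasmacytoid dendritic cell genes, 7 were above 0, with a median of 0.48 and a summed level between 365 and 416 CPM in K74R and between 298 and 356 CPM in WT. In that list Ccr9 had 0.61, Klk1 1.08 and Irf8 0.22.

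Of 12 neutrophil genes, 1 was above 0 (Csf3r, 0.43), with a median of -0.17. Prtn3 had -0.57 and S100a8 -0.40, and the summed level lay between 29042 and 31273 CPM in K74R and between 34460 and 36829 CPM in WT. Of 11 erythroid genes 5 were above 0, with a median of -0.05, Hba-a2 at 0.43 and Car2 at -0.35. Of 11 stromal genes 7 were above 0, with a median of 0.12, Col1a1 at 1.36, Col1a2 at 0.99 and Nt5e at 0.17. Among 4 pan-leukocyte genes Ptprc had 0.18, Coro1a -0.10 and Laptm5 0.09, with a median of 0.03. None of the genes of these 6 lists passed by edgeR. At an unadjusted p under 0.05 there were 2 higher among the T cell genes, 4 higher among the plasmacytoid dendritic cell genes, 1 higher and 5 lower among the neutrophil genes, 1 higher and 1 lower among the erythroid genes, 2 higher among the stromal genes and 0 among the pan-leukocyte genes. Of all genes, 9.8% were higher at that unadjusted p and 17.8% passed it in either direction. DESeq2 called 1 neutrophil gene higher and 4 lower and 1 erythroid gene higher, against 2.21% of all genes higher and 3.39% in either direction. Limma-voom called none of these list genes. The part of cell composition in the values of the early B genes was not tested.

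**Figure D4:**
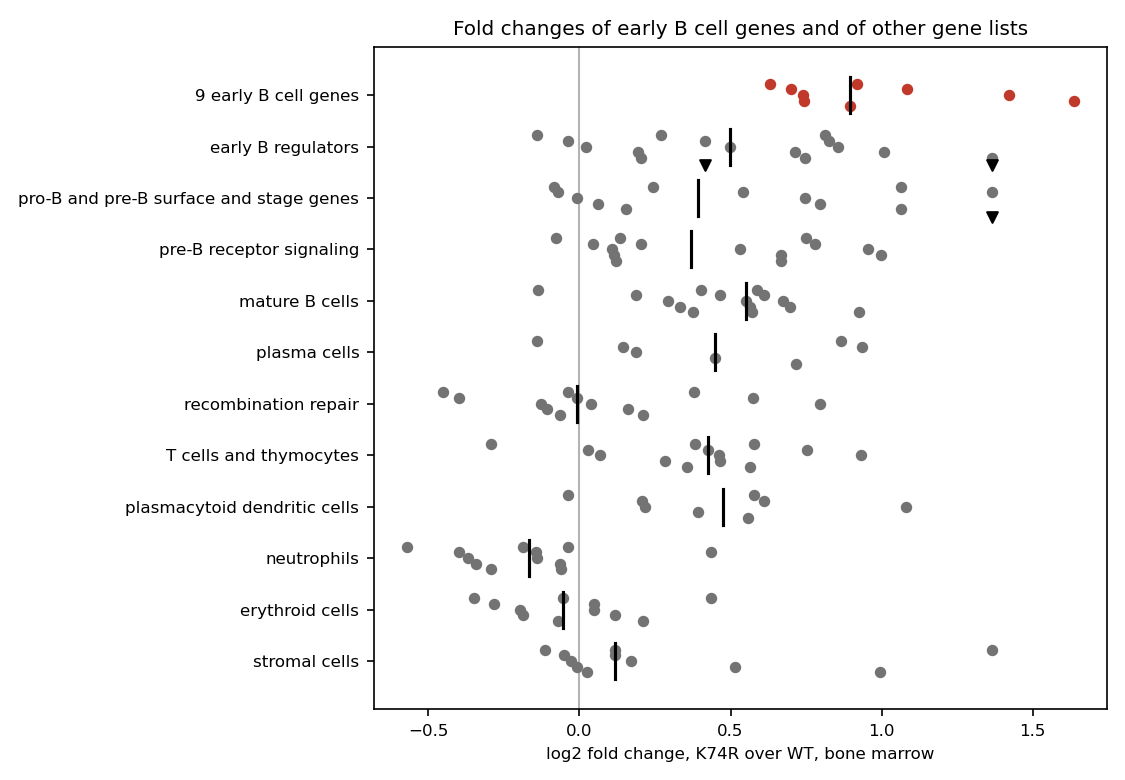
Log2 fold change, K74R over WT in bone marrow (x axis), of the tested genes of 12 lists (y axis). Each dot is a gene, red for the 9 early B genes, a vertical bar is the list's median, and a black triangle below a row marks a gene past an adjusted p of 0.05 (edgeR). The red dots run between 0.63 and 1.64 with a median of 0.89, and the triangles belong to Il7r, which is in 2 lists, and Bcl11a.

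The genes most like the 9 in their pattern over the 6 marrow libraries were found by the root mean square distance between centred log2(CPM + 0.5) values and the mean of the 9. Among 12273 candidates outside the 9, the closest were Map2 (distance 0.0605), Capsl (0.0779), Cd72 (0.0783), Ikzf3 (0.0843), Smtnl2 (0.0849), Lig4 (0.0859), Slamf7 (0.0859), Ablim1 (0.0862), Tmem108 (0.0884) and Slc12a3 (0.093). Cd72 encodes a B cell coreceptor, with 65.4 ± 15.3 CPM in K74R and 33.3 ± 13.1 CPM in WT (SD, n = 3 each), and Ikzf3 encodes Aiolos, a B lineage transcription factor. Map2, better known in neurons, averaged 1.35 CPM in K74R and 0.560 CPM in WT. Of the 9 themselves, Pax5 (0.0653) was closest to the shared pattern, which it helps to define, and Rag1 (0.301) and Vpreb2 (0.365) were farthest from it.

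Outside bone marrow the set divided. Rag1, Rag2, Vpreb2 and Igll1 had 0 counts in all 6 tumors and all 4 MSC libraries. For a gene at 0, 3 counts over a group set the limit, which was 0.0583 CPM in K74R tumors and 0.0555 CPM in WT tumors, and 0.0851 CPM in K74R MSC and 0.0907 CPM in WT MSC. Dntt had 5, 2 and 1 counts in K74R tumors, against 5, 3 and 3 in WT tumors, and 0 in every MSC library. Vpreb1 had 0, 3 and 0 counts in K74R tumors, against 0, 2 and 1 in WT tumors, and 1 and 5 in K74R MSC, against 3 and 1 in WT MSC. Vpreb3 had 0 counts in the 3 K74R tumors, against 1, 1 and 2 in WT tumors, and 1 and 2 in K74R MSC, against 0 and 0 in WT MSC. At this depth no genotype difference could be tested for these 7 genes in either tissue.

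Ebf1 was abundant in MSC, where the marrow recombination genes were not detected. It had 172 and 171 CPM in K74R MSC, against 174 and 180 CPM in WT MSC (log2 fold change -0.05, SE 0.17, adjusted p = 0.887, edgeR), while 3.34% of the 14475 genes tested in MSC passed the threshold. Both K74R values lay below both WT values, as in 29.5% of all genes tested in MSC. Pax5 had 0 counts in all 4 of these libraries. Ms4a1, the B cell surface gene encoding CD20, had 0 counts in all 4 as well, but other B lineage genes were counted there. Ighm had 87 counts over the K74R MSC libraries and 612 over the WT MSC libraries. Cd79b had 68 in K74R and 37 in WT, and Cd79a had 6 in K74R and 10 in WT. The MSC libraries held Col1a1, a fibroblast collagen gene, at 3110 and 4845 CPM in K74R, against 1997 and 977 CPM in WT. They also held Ptprc, which encodes the leukocyte marker CD45, at 78.5 and 203 CPM in K74R, against 407 and 202 CPM in WT.

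In the tumors both Ebf1 and Pax5 were well above the filter on low counts. Pax5 had 606, 424 and 536 counts in K74R tumors, against 528, 530 and 531 counts in WT tumors. This equalled 32.4, 26.5 and 32.1 CPM in K74R and 28.8, 27.9 and 32 CPM in WT (log2 fold change 0.04, SE 0.11, adjusted p = 0.918, edgeR). Ebf1 had 32.5, 22.6 and 19.9 CPM in K74R tumors, against 36.2, 29.6 and 20.4 CPM in WT tumors (-0.20, SE 0.23, adjusted p = 0.769, edgeR). Of 14779 genes tested in the tumors, 6 passed (0.0406%), and neither of these was among them.

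Pax5 and Ms4a1 were both B cell genes of marrow but were far apart in the tumors. Ms4a1 had 6, 2 and 4 counts in K74R tumors, against 3, 3 and 13 in WT tumors. Cd79a had 3.04, 6.38 and 2.21 CPM in K74R tumors, against 7.14, 5.74 and 5.48 CPM in WT tumors. Each tumor library thus held 424 or more Pax5 counts beside at most 13 of Ms4a1. Per length of exon, on the scale of all 16 libraries, tumor Pax5 averaged 3.16 CPM per kb in K74R and 3.10 in WT, against 0.0341 in K74R and 0.0552 in WT for Ms4a1. Cd79a averaged 2.45 CPM per kb in K74R tumors and 3.90 in WT tumors. In marrow Pax5 averaged 30.5 CPM per kb in K74R and 16.3 in WT, against 15.9 in K74R and 10.01 in WT for Ms4a1 and 101 in K74R and 59.4 in WT for Cd79a.

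On 1 scale over all 16 libraries, Ebf1 was highest in WT MSC (190 ± 6.75 CPM) and K74R MSC (185 ± 0.0305 CPM, SD, n = 2 each). Next came K74R marrow (158 ± 36.6 CPM) and WT marrow (75.2 ± 27.3 CPM), and the lowest were WT tumors (26.7 ± 7.43 CPM) and K74R tumors (23.1 ± 6.24 CPM, SD, n = 3 each). The MSC groups lay within the spread of K74R marrow, and the tumor groups did not differ beyond their own. Pax5 was highest in K74R marrow (270 ± 54.1 CPM) and WT marrow (144 ± 49.8 CPM), followed by K74R tumors (27.9 ± 3.15 CPM) and WT tumors (27.5 ± 1.85 CPM, SD, n = 3 each), and was at 0 in MSC. Marrow, MSC and tumor differ in composition, so such levels across tissues rest on the assumption that most genes are alike.

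**Figure D5:**
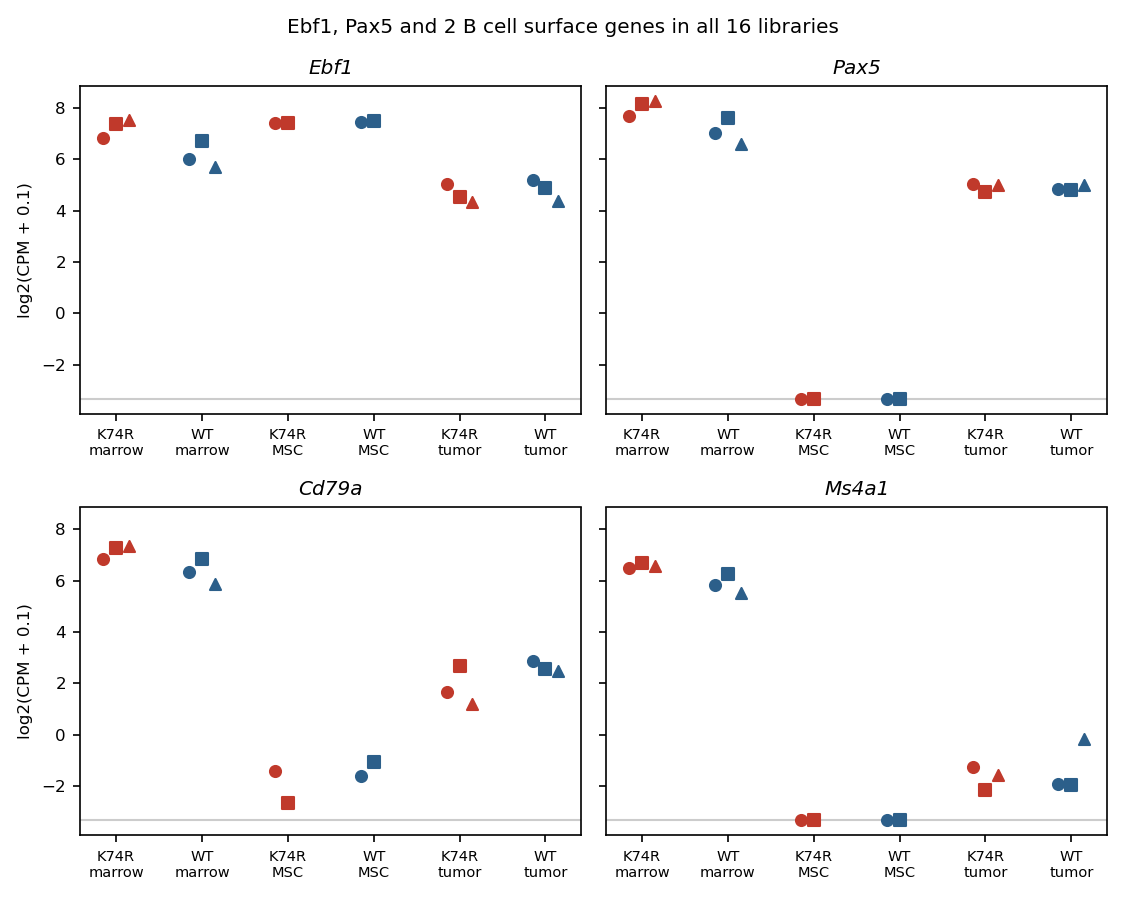
Ebf1, Pax5, Cd79a and Ms4a1 in all 16 libraries as log2(CPM + 0.1) (y axis, a log scale, with CPM scaled within each tissue), K74R in red and WT in blue, by tissue (x axis). Each point is a library and the grey line marks 0 counts. Heights in different tissues are not on 1 scale. In MSC Ebf1 lies between 171 and 180 CPM, while Pax5 and Ms4a1 are on the grey line. In the tumors Pax5 stays near 30 CPM where Ms4a1 is below 1 CPM.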

How the data were processed

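Per the labels' protocols, TRIzol was used for extraction and the KAPA mRNA HyperPrep kit for library preparation. The deposited values are whole-number counts per Ensembl gene, 1 column a library. The submitters' processing notes name FastQC, MultiQC, Trimmomatic 0.38, HISAT2 2.1.0, featureCounts 1.6.0 and GRCm38. The sources used here do not state the annotation release, the strand setting or the handling of multi-mapping reads. All 55536 identifiers were matched to GENCODE M21 for names and coordinates.

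In each tissue, genes passed edgeR's filterByExpr, libraries were scaled by TMM, and K74R was tested against WT with the quasi-likelihood functions of edgeR, and p-values were adjusted by Benjamini-Hochberg over all genes tested (R 4.3.3, edgeR 4.0.16). Ratios used raw counts. Alternatives used DESeq2 1.42.0, limma-voom (limma 3.58.1), other scalings and filters, a replicate block and leaving out each library. Limits for counts of 0 cover counting error only.

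The 9 genes and all gene lists were chosen with earlier results of these data known. Named genes were the 9, Klf1, Cd79a, up to 3 genes a list with the smallest unadjusted p in marrow, and the 10 most alike in pattern. Cd79b, Blnk and neighbouring genes were added after their values were seen. So were the tumor and MSC values of Ms4a1, Col1a1 and Ptprc and the MSC counts of Ighm, Cd79a and Cd79b. The tumor and MSC columns carry letters that the labels do not explain. Some genes of the lists, and a ratio to one of them, are not reported here, and ratios to Blnk and Ighm were chosen after seeing the data.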

Additional observations from a re-analysis of the deposited data

Results flagged for a closer look

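Ebf1 had a log2 fold change of 1.08 in bone marrow, where every K74R library was above every WT library, and of -0.05 in MSC, where every K74R library (172 and 171 CPM) was below every WT library (174 and 180 CPM). It is listed because the libraries stood in opposite orders in the 2 tissues. The MSC value had an SE of 0.17 and an adjusted p of 0.887 (edgeR), and every K74R library was below every WT library in 29.5% of the genes tested in MSC. The difference between the tissues was not tested.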

How the results depend on the processing

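Each of the 9 genes kept a log2 fold change above 0 in bone marrow under every alternative in which it was tested, and Vpreb2 was not tested under the filter of 1 CPM. The count of the 9 past the threshold, 0 as reported, was 7 without the filter on low counts, 2 with DESeq2 and 2 with the replicate block (Rag1 and Dntt, adjusted p = 0.0434 and 0.0422), and between 0 and 8 when libraries were left out. Of all marrow genes tested, 554 of 28468 were called higher in K74R without the filter, 2.21% with DESeq2 and 88 of 14872 with the block. The 115 genes called in marrow became 875 without the filter, 504 with DESeq2, 60 with all 16 libraries in one model, and between 11 (without WT library 3) and 684 (without WT library 2) when libraries were left out, with 16, 21 and 46 without K74R library 2, K74R library 3 and WT library 1. The 6 tumor calls became 810, 178 and 0 under those settings and 13 with the block, and between 0 and 124 when libraries were left out. The 484 MSC calls (61.4% higher in K74R) became 3063 (49.6%), 1906 (51.7%) and 4431, and 1135 with the block (49.8%). They lay between 0 and 581 when libraries were left out, where a lone library is assumed to vary like the others. A crossed pairing of the MSC numbers, chosen after seeing the data, gave 1943. With Blnk in place of Cd79a, chosen after seeing the data, 1 of the 9 ratios, instead of 3, was higher in every K74R library than in every WT library, and that of Igll1 was lower in every one. In tumors, leaving out libraries moved the log2 fold change of Ebf1 to between -0.43 and 0.0015 and that of Pax5 to between -0.012 and 0.13. The causes were not tested. The labels do not state that shared numbers pair samples, so the main fit used no pairing. Same-numbered marrow libraries correlated at 0.31, 0.15 and -0.13 in their deviations, and differently numbered ones at between -0.31 and 0.22. With 3 libraries a group such values cannot decide whether samples were paired. Depth limits Vpreb2 most, with 3 to 26 counts a library.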
